A study of Mus musculus with 4 samples.

Results

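The BCL2 family was followed through 19 array probes of 10 genes: the antiapoptotic genes Bcl2, Bcl2l1 and Mcl1, the effectors Bax and Bak1, and the BH3-only genes Bcl2l11, Bid, Bbc3, Pmaip1 and Bad. Every probe that the array files name after 1 of these genes was taken, 19 of 41174 gene probes in all, and 10 of the 27745 distinct names that the files give those probes. Of these, 4 genes had 1 probe, 3 had 2 and 3 had 3, and a probe each of Bcl2, Bcl2l1 and Bax was printed 10 times on every array. The tests across probes covered 24874 probes, 17 of them from these genes. Of the 2 others, a Bcl2l1 probe and the only Bid probe, each had its single spot marked as an outlier on 1 array.

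The 4 two-colour arrays measured mouse total RNA. In red (Cy5) lay RNA of induced pluripotent stem (iPS) cells on 2 arrays and of mouse embryonic fibroblasts (MEFs) on 2 arrays. In green (Cy3), on all 4 arrays, lay RNA of CGR8.8, a mouse embryonic stem (ES) cell line. The iPS cells came from 1 clone harvested 30 days after transduction, and both they and the ES cells grew in medium with LIF, a cytokine that keeps mouse stem cells undifferentiated, at 1000 IU/ml. The MEFs were harvested after several passages. The labels used here give neither the transduced factors nor the strain, sex or age of the MEFs' embryos. The 2 arrays of a group are called biological replicates without mention of separate cultures; a p-value then covers only how far these samples differ from each other, and part of that may be technical. The dyes were not swapped, so a dye effect and a difference from ES cells cannot be told apart, whereas an effect common to both groups cancels in iPS cells against MEFs. With 1 clone, a feature of the clone cannot be told apart from one of iPS cells in general.

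BCL2 proteins decide whether the outer mitochondrial membrane stays closed during the mitochondrial pathway of cell death. Bax and Bak1 form the pores that release cytochrome c, antiapoptotic members hold them and their activators in check, and BH3-only proteins either neutralize the antiapoptotic members or activate the effectors directly. Pluripotent stem cells are known to stand close to the threshold of this pathway, and antiapoptotic members are known to raise the survival of stem cells in culture.

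All 9 pluripotency markers were well above background in the RNA of iPS cells, of MEFs and of ES cells; 6 were called higher and 1 lower in iPS cells against ES cells, and 9 of 9 were called lower in MEFs against ES cells. Of 9 fibroblast markers, against ES cells, 6 were called lower in iPS cells and 8 higher in MEFs, and 5 were well above background in iPS cells. Replicate arrays correlated across probes at r = 0.992 for iPS cells and 0.989 for MEFs, and 61.1% to 63.4% of probes were well above background in a channel. The number of arrays, 2 a group, limits the precision. In cultures measured in bulk, fewer cells of a type and less RNA per cell cannot be told apart.

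A probe was called when limma's Benjamini-Hochberg adjusted p was under 0.05 and the change was at least 2-fold. In iPS cells against ES cells, 5 of 17 tested probes were called lower and 0 higher, on a background of 10.7% of all tested probes called lower and 8% called higher. These 5 were the 3 Bcl2 probes, 1 of 3 Bcl2l11 probes and the Bbc3 probe, with limma adjusted p from 6.61e-09 to 6.44e-06. Both ends of that range are Bcl2 probes, A_52_P534870 and A_52_P438280, that were not well above background in iPS cells. They entered the test through their signal in MEFs and ES cells, so a lower value in iPS cells was favoured in advance, also against MEFs. In MEFs against ES cells, 4 of 17 were called lower and 0 higher, where the background was 12.4% lower and 12.8% higher. These were both Mcl1 probes, the same Bcl2l11 probe and Bbc3 (limma adjusted p from 1.03e-07 to 4.67e-07). In iPS cells against MEFs, 5 of 17 were called lower and 1 higher, with 17.7% of all probes lower and 15.4% higher (limma adjusted p from 3.29e-08 to 9.87e-06). Called lower were 2 Bcl2 probes, 2 Bcl2l1 probes and 1 Bak1 probe, and the probe called higher was 1 of 2 for Mcl1. Called in either direction were 29.4%, 23.5% and 35.3% of the family's probes, against 18.7%, 25.2% and 33.1% of all probes, for iPS cells over ES cells, for MEFs over ES cells and for iPS cells over MEFs. In MEFs against ES cells and in iPS cells against MEFs these shares lay near the background and are no result about the family. In iPS cells against ES cells the share was above the background, but 3 of the 5 calls were probes of Bcl2. With arrays centred on their median it was 17.6% against 21.1%, and with 1 probe per gene 33.3% against 20.9%. It is not read as a result about the family either.

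An adjusted p under 0.05 at any fold was reached by 13, 16 and 14 of the 17 probes in the same 3 comparisons, where 78.1%, 82.5% and 79.8% of all probes reached it.

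**Figure D1:**
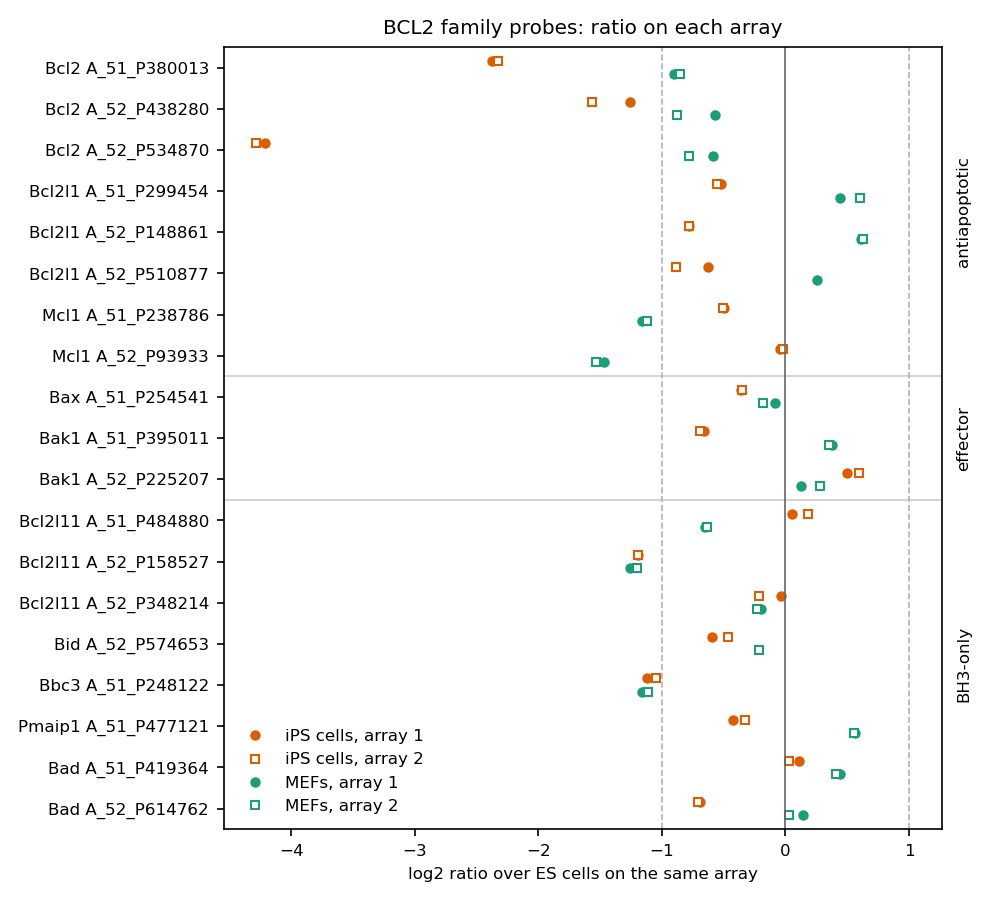
Log2 ratio over ES cells on the same array (horizontal axis) of the 19 probes, grouped by role, for 2 arrays of iPS cells (orange) and 2 of MEFs (green). Filled circles are replicate 1 and open squares replicate 2, and dashed lines mark 2-fold. The widest separation from 0 is that of Bcl2 A_52_P534870 in iPS cells (-4.21 and -4.28, not well above background), followed by Bcl2 A_51_P380013 (-2.37 and -2.33).

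Bcl2, the founding antiapoptotic member, was lower in the iPS clone than in ES cells at all 3 of its probes and was the largest difference in the family. The probe in its coding sequence, A_51_P380013 at chr1:108539940-108539999 (mm8, minus strand), lies in the stretch that encodes the BH1 motif, part of the groove that binds BH3 helices. It is shown because it measures coding sequence, in lower case with nothing marked:
Bcl2 A_51_P380013: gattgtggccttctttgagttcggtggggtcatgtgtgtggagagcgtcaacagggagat

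On this probe the log2 ratio over ES cells was -2.37 and -2.33 on the iPS arrays and -0.90 and -0.85 on the MEF arrays. Every array was below 0 and the iPS arrays lay below the MEF arrays without overlap. The fit gave -2.35 ± 0.05 (SE) for iPS cells over ES cells, a 5.10-fold lower value (limma adjusted p = 1.85e-08), and -1.47 ± 0.07 for iPS cells over MEFs, or 2.78-fold lower (limma adjusted p = 7.33e-07). For MEFs over ES cells it gave -0.88, a 1.84-fold lower value under the 2-fold limit (limma adjusted p = 1.58e-06). The call in iPS cells over MEFs was lost under 1 of 17 alternative settings. Normalized log2 levels were 7.60 and 7.63 in iPS cells, 9.00 and 9.03 in MEFs and 9.88 to 9.97 in ES cells, so the order was iPS cells, MEFs, ES cells with gaps wider than the spread.

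The Bcl2 probe printed 10 times, A_52_P534870 at chr1:108365763-108365822 (minus strand), lies 174 kb further along the gene, near the end of another RefSeq transcript in the array's annotation. Its log2 ratio over ES cells was -4.21 and -4.28 on the iPS arrays and -0.59 and -0.78 on the MEF arrays. In iPS cells the signal was not well above background on either array, so only a bound can be given. It was at least 19.0-fold lower than in ES cells and at least 11.8-fold lower than in MEFs. The limma adjusted p values, 6.61e-09 and 3.29e-08, test the fitted ratios against 0 and not these bounds. The probe entered the test through MEFs and ES cells, so a lower value in iPS cells was favoured in advance. A bound of this kind sets the brighter group's mean against the dim group's signal, or the weakest signal well above background where that is higher. It makes no allowance for the error of the fit. The 95% interval of the log2 ratio reached up to -4.10 against ES cells and -3.36 against MEFs. In MEFs it was 1.61-fold lower than in ES cells (log2 ratio -0.68, limma adjusted p = 2.46e-05), under the 2-fold limit. Measured levels averaged 6.20 in iPS cells, 9.76 in MEFs and 10.45 in ES cells.

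The third Bcl2 probe, A_52_P438280, lies 1.6 kb downstream of the coding probe and read -1.26 and -1.56 on the iPS arrays and -0.57 and -0.88 on the MEF arrays. It was the probe with the widest gap between replicates in the family, at 0.30 for iPS cells and 0.31 for MEFs. In iPS cells it too was not well above background, and its RNA was at least 2.55-fold lower than in ES cells. The limma adjusted p of 6.44e-06 belongs to the fitted ratio and not to that bound. That bound also leaves out the error of the fit, whose 95% interval of the log2 ratio reached up to -1.19. Against MEFs the bound was at least 1.50-fold lower (limma adjusted p of the fitted ratio = 0.00221). In MEFs the probe was 1.65-fold lower than in ES cells (limma adjusted p = 0.000223). Neither reached 2-fold.

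**Figure D2:**
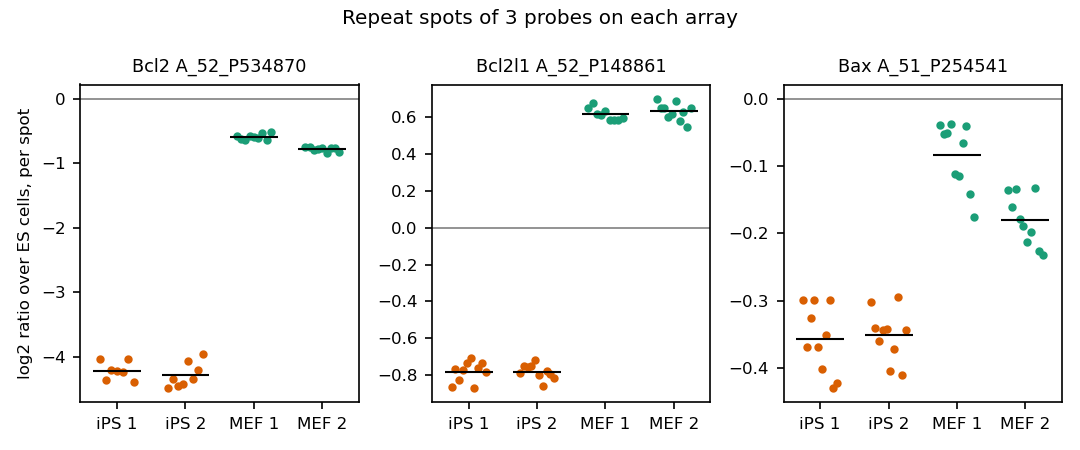
Log2 ratio over ES cells (vertical axis, scaled separately in each panel) of every used spot of the 3 probes printed 10 times, on 2 iPS arrays (orange) and 2 MEF arrays (green), with the array mean as a line. Bcl2 spots in iPS cells ran from -4.48 to -3.95, Bcl2l1 spots lay below 0 in iPS cells and above 0 in MEFs, and all Bax spots lay between -0.43 and -0.04.

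Repeat spots gave the error within an array. For Bcl2, the SD over spots was 0.14 (7 spots used) and 0.19 (8 spots) on the iPS arrays and 0.04 (9 spots) and 0.03 (9 spots) on the MEF arrays. For Bcl2l1 and Bax it lay between 0.03 and 0.05 on every array. The spots of 1 array share a hybridization and were averaged to 1 value before any test.

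Bcl2l1, which encodes the antiapoptotic protein BCL-XL, went the opposite way in the 2 cell types relative to ES cells. On its probe printed 10 times, A_52_P148861 at chr2:152472336-152472395 (minus strand), the log2 ratio was -0.78 and -0.78 on the iPS arrays and 0.61 and 0.63 on the MEF arrays. The fit gave -0.78 for iPS cells over ES cells (1.72-fold lower, limma adjusted p = 3.25e-06) and 0.62 for MEFs over ES cells (1.54-fold higher, limma adjusted p = 8.71e-06), both under 2-fold. Between iPS cells and MEFs it was 2.65-fold lower in iPS cells, a log2 difference of -1.40 ± 0.06 (SE, limma adjusted p = 7.89e-07). That call was lost under 2 of 18 alternative settings. Levels ran 9.74 and 9.78 in iPS cells, 11.11 and 11.25 in MEFs and, on average, 10.55 ± 0.05 (SD, n = 4) in ES cells, an order of iPS cells, ES cells, MEFs with no overlap.

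Both other Bcl2l1 probes had the same signs. A_51_P299454, 49 kb away on the gene, read -0.53 and -0.55 on the iPS arrays and 0.44 and 0.60 on the MEF arrays, and was 2.08-fold lower in iPS cells than in MEFs (log2 -1.06, limma adjusted p = 9.87e-06). That call was lost under 3 of 17 alternative settings, across which the difference ran from -2.23 to -0.83. Without MEF replicate 2 it was -0.98. A_52_P510877 read -0.62 and -0.88 on the iPS arrays and 0.26 on the array of MEF replicate 1, its spot on the other MEF array being marked. It was not tested with the rest; fitted on 3 arrays, it gave -1.01 for iPS cells over MEFs (limma adjusted p = 0.000428).

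Mcl1, an antiapoptotic member with a short-lived protein, was lower in MEFs than in ES cells at both probes, while the iPS clone lay nearer to ES cells. A_52_P93933 at chr3:95747025-95747084 (plus strand) read -0.05 and -0.02 on the iPS arrays and -1.47 and -1.53 on the MEF arrays. The MEF value was 2.83-fold lower than in ES cells (-1.50 ± 0.05 SE, limma adjusted p = 1.03e-07). The iPS value was 2.77-fold higher than in MEFs (1.47 ± 0.07 SE, limma adjusted p = 7.59e-07), and for iPS cells over ES cells the fit gave -0.03 with an adjusted p of 0.527 in limma. Levels were 13.24 and 13.27 in iPS cells, 11.81 and 11.72 in MEFs and 13.26 to 13.29 in ES cells; iPS and ES values overlapped and the MEF values lay apart.

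The other Mcl1 probe, A_51_P238786, lies 1.25 kb further 3′. It read -0.50 and -0.50 on the iPS arrays and -1.16 and -1.12 on the MEF arrays. It was 2.21-fold lower in MEFs than in ES cells (-1.14, limma adjusted p = 3.47e-07) and, under 2-fold, 1.41-fold lower in iPS cells than in ES cells (-0.50, limma adjusted p = 4.06e-05). With iPS cells over MEFs at 0.64 (limma adjusted p = 6.14e-05), the 2 probes shared the order of MEFs against both other cell types but not the distance of iPS cells from ES cells.

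**Figure D3:**
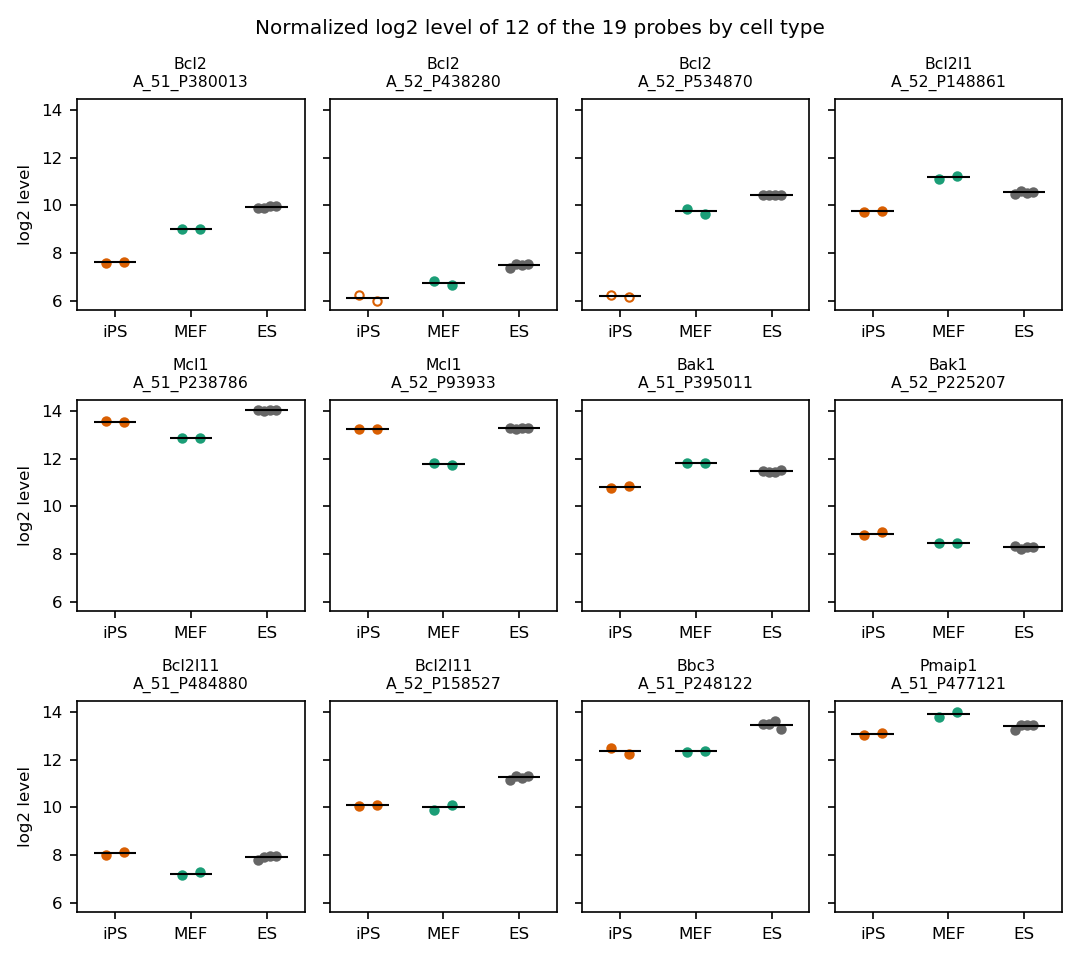
Normalized log2 level (vertical axis) of 12 of the 19 probes in iPS cells (2 arrays, orange), MEFs (2 arrays, green) and ES cells (green channel of 4 arrays, grey), with the mean as a line and open points where no array was well above background. Bcl2 is lowest in iPS cells and highest in ES cells, Mcl1 is lowest in MEFs, and Bbc3 is highest in ES cells; levels of different probes are not comparable.

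The calls against ES cells for Mcl1, Bbc3 and Bcl2l11 depended on the normalization. Centring each array on its median in place of loess moved the median of all probes by over 0.1, to 0.16 for MEFs over ES cells and 0.14 for iPS cells over ES cells, and raised the share of calls that were higher to 70.0% from 50.6% for MEFs and to 61.5% from 42.8% for iPS cells. Under it the MEF values were -0.99 and -0.53 for Mcl1, -0.58 for Bbc3 and -0.87 for Bcl2l11, still below 0 and no longer called, and the iPS values of Bbc3 (-0.60) and Bcl2l11 (-0.92) were not called either. A second dependence concerned 1 array: where normexp was fitted over all spots, or marked spots were kept, the ratios of MEF replicate 1 shrank toward 0. With marked spots kept, Mcl1 A_52_P93933 read -0.68 on that array and -1.54 on the array of MEF replicate 2. The family's calls in MEFs over ES cells were then 0 (4 probes had an unadjusted p under 0.05 in limma), and those in iPS cells over MEFs were 2, or 1 with normexp over all spots. Of all probes, 0.721% and 11.1% were called in these comparisons with marked spots kept, and 0% and 10.6% with normexp over all spots. With MEF replicate 1 left out, both settings again gave 4 calls in MEFs over ES cells.

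The effectors Bax and Bak1 stayed under 2-fold from ES cells at all 3 probes. Bax A_51_P254541, printed 10 times and spanning 156 bases of the genome at chr7:45334141-45334296 (minus strand), read -0.36 and -0.35 on the iPS arrays and -0.08 and -0.18 on the MEF arrays. All 4 arrays were below 0 and the groups did not overlap, but the fit gave only -0.35 for iPS cells over ES cells (limma adjusted p = 0.000391) and -0.13 for MEFs over ES cells (limma adjusted p = 0.0402). Under median centring the sign turned, to 0.17 in iPS cells and 0.46 in MEFs, so no direction against ES cells is claimed. For iPS cells over MEFs the difference was -0.22 (limma adjusted p = 0.0208). Levels were 13.02 and 13.04 in iPS cells, 13.25 and 13.13 in MEFs and 13.31 to 13.39 in ES cells.

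Bak1 had 2 probes that gave opposite signs in iPS cells. A_51_P395011 at chr17:26747611-26747670 (minus strand) read -0.66 and -0.69 on the iPS arrays and 0.37 and 0.35 on the MEF arrays. It was 2.05-fold lower in iPS cells than in MEFs (-1.04, limma adjusted p = 4.16e-06), just past 2-fold, and lost that call under 4 alternatives, at -0.91 to -0.94. It was 1.60-fold lower in iPS cells than in ES cells (-0.67, limma adjusted p = 7.47e-06). A_52_P225207, 1.2 kb toward the 5′ end of the gene, read 0.50 and 0.60 on the iPS arrays and 0.13 and 0.28 on the MEF arrays. It gave 0.55 for iPS cells over ES cells (limma adjusted p = 7.99e-05) and 0.34 for iPS cells over MEFs (limma adjusted p = 0.00603), under 2-fold in each. The direction of Bak1 in iPS cells therefore rests on the probe, and none is given for the gene. The second probe lies in coding sequence, over the stretch for its BH1 motif, printed for comparison with the Bcl2 probe and shown with the Bax probe:
Bak1 A_52_P225207: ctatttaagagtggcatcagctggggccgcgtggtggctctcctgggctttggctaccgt
Bax A_51_P254541: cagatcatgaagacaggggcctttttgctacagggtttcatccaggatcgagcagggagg

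Among the BH3-only genes, Bbc3 and Bcl2l11 were the 2 with a called probe. Bbc3 encodes PUMA, a target of p53 that binds all the main antiapoptotic members. Its probe A_51_P248122 at chr7:15476576-15476635 (plus strand) read -1.12 and -1.05 on the iPS arrays and -1.16 and -1.11 on the MEF arrays. It was 2.12-fold lower in iPS cells than in ES cells (-1.09 ± 0.05 SE, limma adjusted p = 8.12e-07) and 2.20-fold lower in MEFs than in ES cells (-1.14 ± 0.05 SE, limma adjusted p = 4.67e-07). For iPS cells over MEFs the fit gave 0.052 (limma adjusted p = 0.512). Levels were 12.49 and 12.24 in iPS cells, 12.34 and 12.38 in MEFs and 13.28 to 13.61 in ES cells, so the ES levels stood apart from both. ES RNA was green on every array, so a dye effect on this probe cannot be told apart from that difference.

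Bcl2l11 encodes BIM, which binds all the main antiapoptotic members and can activate Bax directly. Its 3 probes did not move as 1. A_51_P484880 crosses a splice junction (chr2:127838598-127849693, plus strand, 11096 bases of genome for a 60-base probe) and lies in the stretch that encodes the BH3 helix; the capitals mark the 2 codons of the motif's conserved core:
Bcl2l11 A_51_P484880: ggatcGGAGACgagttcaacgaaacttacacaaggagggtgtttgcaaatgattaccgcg

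On this BH3 probe the log2 ratio was 0.05 and 0.18 on the iPS arrays and -0.65 and -0.63 on the MEF arrays. The groups did not overlap. The fit gave 0.12 for iPS cells over ES cells (limma adjusted p = 0.0731), -0.64 for MEFs over ES cells (limma adjusted p = 1.58e-05) and 0.76 for iPS cells over MEFs (limma adjusted p = 4.84e-05), none of them 2-fold.

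A_52_P158527 lies 4.06 kb further 3′, at chr2:127853756-127853815. It read -1.19 and -1.19 on the iPS arrays and -1.26 and -1.20 on the MEF arrays. It was 2.28-fold lower in iPS cells than in ES cells (limma adjusted p = 4.15e-07) and 2.34-fold lower in MEFs than in ES cells (limma adjusted p = 2.59e-07), and iPS cells over MEFs gave 0.04 (limma adjusted p = 0.621). In iPS cells, then, the 3′ probe was called lower while the value of the BH3 probe did not pass the test. The third probe, A_52_P348214, lies 17.5 kb on the 5′ side of the BH3 probe, was well above background on 1 of 2 MEF arrays, and read -0.04 and -0.21 on the iPS arrays and -0.20 and -0.23 on the MEF arrays, values that overlap.

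Pmaip1 encodes NOXA, a BH3-only protein that binds MCL1. Its probe A_51_P477121 read -0.42 and -0.33 on the iPS arrays and 0.56 and 0.55 on the MEF arrays. Signs were opposite in the 2 cell types, and the difference of iPS cells from MEFs was 1.91-fold toward lower (-0.93, limma adjusted p = 1.06e-05), under 2-fold. Levels were 13.03 and 13.13 in iPS cells, 13.82 and 14.01 in MEFs and 13.26 to 13.46 in ES cells. Under median centring the iPS value against ES cells turned to 0.16 and the MEF value reached 1.19, which was then called.

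Bid encodes the protein that caspase 8 cleaves to connect death receptors with mitochondria. Its only probe, A_52_P574653, read -0.60 and -0.47 on the iPS arrays and -0.22 on the array of MEF replicate 2, with the spot marked on the array of MEF replicate 1. It was not tested with the rest; on 3 arrays it gave -0.53 for iPS cells over ES cells (limma adjusted p = 0.000198), -0.22 for MEFs over ES cells (limma adjusted p = 0.0421) and -0.31 for iPS cells over MEFs (limma adjusted p = 0.024). None of these was 2-fold.

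Bad encodes a BH3-only protein that growth factor signalling holds inactive by phosphorylation. A_51_P419364 read 0.11 and 0.03 on the iPS arrays, where it was well above background on 1 of 2, and 0.44 and 0.41 on the MEF arrays. It gave 0.42 for MEFs over ES cells (limma adjusted p = 0.000116) and 0.07 for iPS cells over ES cells (limma adjusted p = 0.227). The second probe with this name, A_52_P614762, read -0.69 and -0.71 on the iPS arrays and 0.14 and 0.03 on the MEF arrays, and gave -0.70 for iPS cells over ES cells (limma adjusted p = 1.04e-05). It lies 8.92 kb away on the minus strand, whereas the RefSeq table places Bad on the plus strand, so whether it measures Bad is uncertain. The other 17 probes with a strand in that table lay on the strand of their gene.

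Taken by role, the 7 tested antiapoptotic probes had a median log2 ratio of -0.78 in iPS cells over ES cells, -0.73 in MEFs over ES cells and -1.06 for iPS cells over MEFs. The 3 effector probes had medians of -0.35, 0.21 and -0.22, and the 7 BH3-only probes of -0.37, -0.21 and 0.04. Over all 24874 probes the medians were -0.01, -0.01 and 0.01. The antiapoptotic probes hold 3 of Bcl2, which weigh on that median, and the probes of a gene are not independent.

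**Figure D4:**
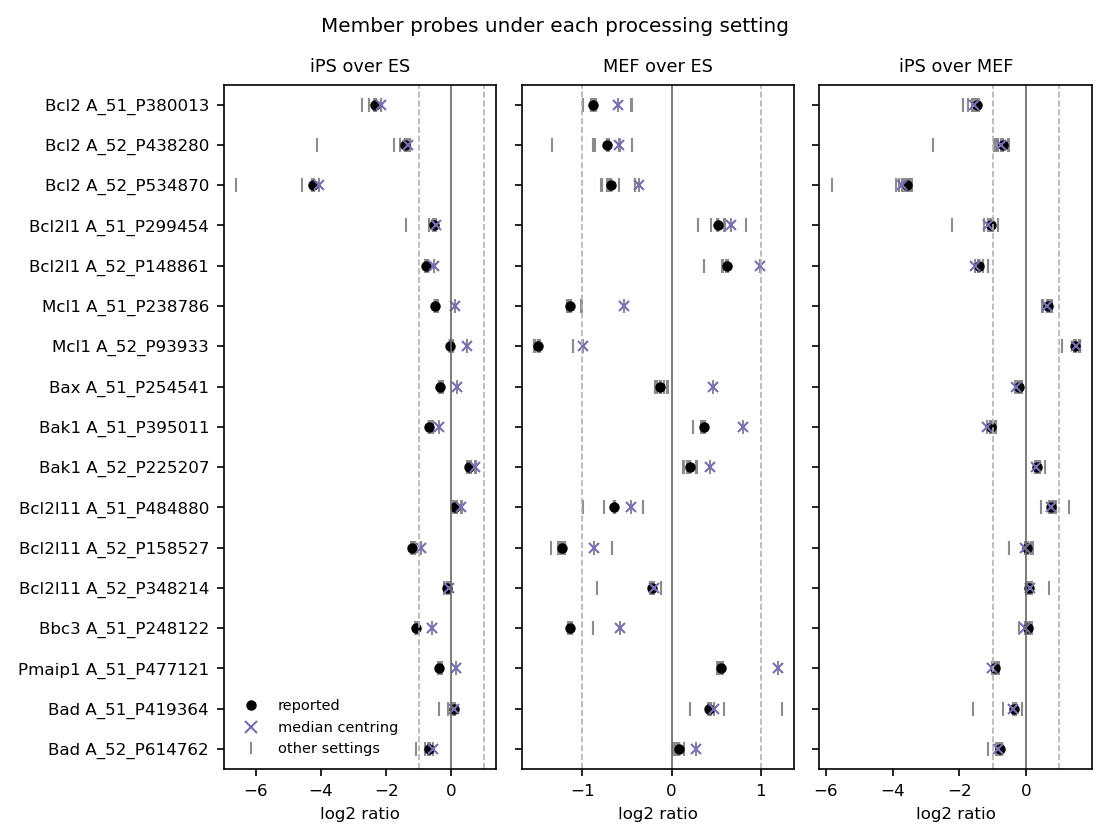
Log2 ratio (horizontal axis, scaled separately in each panel) of the 17 tested probes in iPS cells over ES cells, MEFs over ES cells and iPS cells over MEFs. Black points are the reported values, crosses median centring and grey ticks the other settings, dashed lines mark 2-fold, and Bcl2 A_52_P534870, not well above background in iPS cells, lay at -3.43 or lower in both panels with iPS cells on top of the ratio.

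The rest of the pathway was counted from lists of genes, each gene by its brightest tested probe. Counted that way, 9.08% of all 17620 genes were called higher and 11.8% lower in iPS cells over ES cells. In MEFs over ES cells 13.8% were higher and 13.6% lower, and for iPS cells over MEFs 17% and 18.8%. In either direction these were 20.9%, 27.4% and 35.8%. With normexp fitted over all spots, where the ratios of MEF replicate 1 shrank, limma called 0 genes of the 5 lists in MEFs over ES cells, and 1 to 10 genes a list had an unadjusted p under 0.05. With marked spots kept it called 0 genes in MEFs over ES cells in each of the 5 lists but the last, which had 1, and 1 to 9 genes a list had an unadjusted p under 0.05. Among 17 other BCL2 family genes tested, 3 were called higher and 1 lower in iPS cells over ES cells (median -0.23), 2 higher and 3 lower in MEFs over ES cells (median -0.15), and 3 higher and 2 lower in iPS cells over MEFs (median 0.20). Called in either direction were 23.5%, 29.4% and 29.4%, near the shares of all genes. The highest adjusted p of a call was 4.61e-06 in limma. Bmf, a BH3-only gene, had the widest contrast: 1.24 in iPS cells over ES cells, -1.75 in MEFs over ES cells and 2.99 for iPS cells over MEFs. Bnip3, a mitochondrial relative known for its response to low oxygen, was higher than in ES cells in both, at 2.42 in iPS cells and 2.15 in MEFs. Bcl2l14 was higher in iPS cells than in ES cells (2.22) and MEFs (2.72), and Bnip2 was lower than in ES cells (-1.48) and MEFs (-2.31). Bik, another BH3-only gene, was at least 2.71-fold lower in MEFs than in ES cells, and Bcl2a1b, an antiapoptotic gene of blood cells, at least 2.28-fold higher. Bcl2a1b has near-identical copies, so its probe may read more than 1 gene.

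Of the 5 pathway lists, the death receptor genes had the medians farthest from 0. Of 11 tested, 1 was called higher and 4 lower in iPS cells over ES cells (median -0.73), 6 higher and 0 lower in MEFs over ES cells (median 1.02), and 0 higher and 7 lower in iPS cells over MEFs (median -2.15). Called in either direction were 45.5%, 54.5% and 63.6%, against 20.9%, 27.4% and 35.8% of all genes. Cflar, the inhibitor of caspase 8, read -3.39 in iPS cells over ES cells, 1.61 in MEFs over ES cells and -5.00 for iPS cells over MEFs, and its 4 other probes ran from -1.23 to -0.41, -0.22 to 1.46 and -2.69 to -0.19 in the same comparisons. The receptor gene Fas read -1.74, 2.61 and -4.34 in the same order, with its second probe at -0.48, 1.08 and -1.56. Tnfrsf1a, a receptor for tumour necrosis factor, was higher in MEFs than in ES cells (3.13) and lower in iPS cells than in MEFs (-4.12). Tnfrsf12a, the receptor for the cytokine TWEAK, read -3.97 in iPS cells over ES cells, and Casp8, the initiator caspase that cleaves Bid, read -2.02. With marked spots kept the list had 3 genes called lower in iPS cells over ES cells, 0 called in MEFs over ES cells (4 with an unadjusted p under 0.05 in limma) and 3 called lower in iPS cells over MEFs, on the same shrunken ratios of MEF replicate 1.

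**Figure D5:**
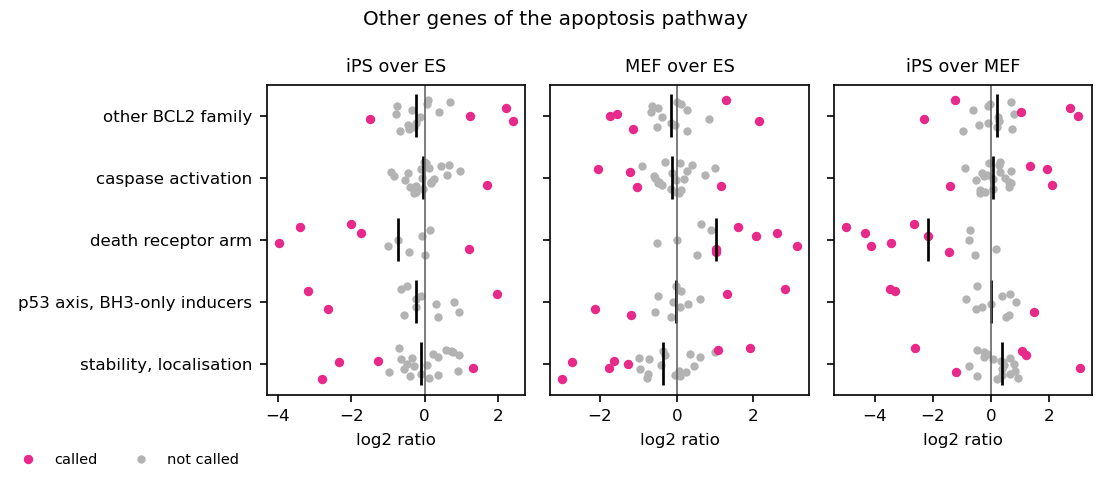
Log2 ratio (horizontal axis) of the tested genes of 5 lists, 1 point a gene, in iPS cells over ES cells, MEFs over ES cells and iPS cells over MEFs; called genes are pink, the others grey, and a black line marks the list's median. Of these 5 lists, the death receptor genes have the medians farthest from 0, at -0.73, 1.02 and -2.15.

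Downstream of mitochondria, 23 genes of caspase activation were tested, of which 1 was called higher and 0 lower in iPS cells over ES cells (median -0.05; 22 were not called), 1 higher and 3 lower in MEFs over ES cells (median -0.13) and 3 higher and 1 lower in iPS cells over MEFs (median 0.09). Those are 4.35%, 17.4% and 17.4%, below the shares of all genes. Median centring gave 3 higher and 0 lower in iPS cells over ES cells, and 3 higher and 1 lower in MEFs over ES cells. Endog, a mitochondrial nuclease, was higher in iPS cells than in ES cells (1.71) and MEFs (2.10). Birc5, which encodes survivin, a protein of dividing cells, was lower in MEFs than in ES cells (-2.04) and higher in iPS cells than in MEFs (1.93). Casp2 (-1.22) and Parl (-1.03) were lower and Htra2 (1.16) higher in MEFs than in ES cells.

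Of 13 tested genes of the p53 axis and other inducers of BH3-only genes, 1 was called higher and 2 lower in iPS cells over ES cells (median -0.23), 2 higher and 2 lower in MEFs over ES cells (median -0.01), and 1 higher and 2 lower in iPS cells over MEFs (median 0.02). Called in either direction were 23.1%, 30.8% and 23.1%, against 20.9%, 27.4% and 35.8% of all genes. Cdkn1a, the cell cycle inhibitor p21 and a p53 target, was higher in MEFs than in ES cells (2.83) and lower in iPS cells than in MEFs (-3.47). Ddit3, the stress factor CHOP, was lower in iPS cells than in ES cells (-3.17) and MEFs (-3.28), and Trib3, its target, was lower than in ES cells in iPS cells (-2.64) and MEFs (-2.14). Trp53 was called higher in iPS cells than in MEFs at its brightest probe (1.49), while its second probe read -0.34.

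Among 23 tested genes that act on the stability or location of BCL2 proteins, 1 was called higher and 3 lower in iPS cells over ES cells (median -0.11), 2 higher and 5 lower in MEFs over ES cells (median -0.36), and 3 higher and 2 lower in iPS cells over MEFs (median 0.40). Called in either direction were 17.4%, 30.4% and 21.7%, against 20.9%, 27.4% and 35.8% of all genes. Median centring moved the balance to 4 higher and 3 lower in iPS cells, and to 4 higher and 4 lower in MEFs, both over ES cells. Pim2, a kinase that phosphorylates BAD, was lower than in ES cells in iPS cells (-2.32) and MEFs (-2.73), as was Ywhaz, a 14-3-3 protein, at its brightest probe (-2.78 and -2.99). The second Ywhaz probe read -1.08 and -0.82. Akt1, another BAD kinase, was higher in MEFs than in ES cells (1.91) and lower in iPS cells than in MEFs (-2.62). Rps6ka1 read 1.31 in iPS cells over ES cells, -1.77 in MEFs over ES cells and 3.08 for iPS cells over MEFs. Fbxw7 (1.23) and Btrc (1.08), which encode parts of ligases known to mark MCL1 for degradation, were higher in iPS cells than in MEFs. Each list was chosen with earlier results of these data known and is described by its counts only.

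Summed levels of markers of other cell types differed between these groups. Of 7 macrophage markers, 2 were well above background in iPS cells, 7 in MEFs and 3 in ES cells. Their summed level, as log2 of the sum, was 9.70 in iPS cells, 12.89 to 12.97 in MEFs and 10.48 to 10.56 in ES cells. One by one, 3 were called higher and 1 lower in MEFs over ES cells, and 0 higher and 2 lower in iPS cells over ES cells. Of the 4 tested endothelial markers, the summed log2 level was 9.81 to 9.84 in iPS cells, 11.90 to 11.98 in MEFs and 11.31 to 11.34 in ES cells. A sum weighs the bright markers most, and single endothelial markers went both ways. In iPS cells over ES cells 2 were called higher and 1 lower (median log2 ratio 0.54). In MEFs over ES cells 1 was higher and 1 lower (median -0.52), and in iPS cells over MEFs 2 and 2 (median -0.46). All 9 fibroblast markers were well above background in the ES RNA, whose summed level of them was 15.17 to 15.22 on the iPS arrays and 14.77 to 14.78 on the MEF arrays. Their part in the differences of BCL2 family and death receptor genes was not tested.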

How the data were processed

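Per the file headers, the authors read the arrays with Agilent Feature Extraction 10.5.1.1. Deposited values used here are mean spot intensity and median local background intensity per channel, not normalized, and, as an alternative, the log10 ratio (red over green) that the authors deposited. From these, background was corrected with normexp (offset 50, limma 3.58.1, R 4.3.3), fitted over spots not marked as outliers, and arrays were normalized by loess (span 0.3, control spots at weight 0). Repeat spots were averaged per probe. The filter, a signal well above background in at least 1 RNA on all its arrays, left 27725 of 41174 gene probes, and 24874 with no missing array were tested. Log2 ratios were fitted per probe with limma (lmFit, eBayes; 2 residual degrees of freedom) and adjusted by Benjamini-Hochberg over all of them. Levels per channel are quantile-scaled on the mean intensity of both channels. Coordinates are mm8, as the array files give them; the strand of genes and some names come from RefSeq tables. All member probes are named. From each further list, at most the 3 largest rises and 3 largest falls among called genes in a comparison are named. Members and lists were chosen with earlier results of these data known. Same-numbered arrays had deviations from their group means that correlated at -0.11 across probes. That value cannot show whether they were handled together, and the reported fit did not pair them.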

Additional observations from a re-analysis of the deposited data

Results flagged for a closer look

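Among the 4 ES values of a probe, 2 stood apart from the 3 others by the range test used (Dixon's 95% critical value), which by chance picks out about 1 in 20 groups. The ES level of Bak1 A_52_P225207 was 8.20 on the array of MEF replicate 2, against 8.32 to 8.33 on the others. That of Pmaip1 A_51_P477121 was 13.26 on the array of MEF replicate 1, against 13.45 to 13.46 on the others. The ratios of both are taken within an array.

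In the test of the difference itself, the ratio over ES cells differed between iPS cells and MEFs by at least 2-fold for 6 of 17 tested probes. That is 35.3%, near the 33.1% of all tested probes, and is no result about the family. The difference, iPS cells minus MEFs on the log2 scale, was -1.47 and -3.56 for Bcl2 (A_51_P380013 and A_52_P534870), -1.06 and -1.40 for Bcl2l1 (A_51_P299454 and A_52_P148861), 1.47 for Mcl1 A_52_P93933 and -1.04 for Bak1 A_51_P395011. The value of Bcl2 A_52_P534870 is limited by its signal in iPS cells, which was not well above background, and stands for at least 11.8-fold lower.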

How the results depend on the processing

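Of 15 called results of single probes, 0 changed sign under an alternative and 4 stayed called under each alternative that had them in the fit: the 3 Bcl2 probes in iPS cells over ES cells and Bcl2 A_52_P534870 in iPS cells over MEFs. Of these, 1 probe per gene left in A_52_P534870 alone, and the filter on both channels A_51_P380013 alone. A_52_P534870 and A_52_P438280 were not well above background in iPS cells and entered the test through MEFs and ES cells. A lower value in iPS cells was thus favoured in advance, and that these probes stayed called adds no support. A pair of settings rests on the array of MEF replicate 1, where the SD of log2 ratios across probes fell to 0.33 with normexp fitted over all spots and 0.33 with marked spots kept, from 1.07. With normexp over all spots, limma called 0 family probes in MEFs over ES cells (0 of 24874 probes in all) and 1 in iPS cells over MEFs (10.6% of all probes). In MEFs over ES cells 4 family probes and 2392 in all had an unadjusted p under 0.05 in limma. With marked spots kept the counts were 0 (200 of 27725 in all) and 2 (11.1% of all probes). In MEFs over ES cells 4 family probes then had an unadjusted p under 0.05 in limma. Without MEF replicate 1, chosen after seeing the data, both settings gave 4 in MEFs over ES cells, and 6 and 7 in iPS cells over MEFs. Median centring gave 3 of 17 in iPS cells over ES cells (21.1% of all probes called), 1, Pmaip1, in MEFs over ES cells (27.1%) and 7 for iPS cells over MEFs (34.8%). The scanner's log ratio gave 6 (33.8%), 6 (41.6%) and 9 (50.2%). Asking for signal above background in both channels gave 3 of 13 in iPS cells over ES cells, where fewer probes were tested (19.7% of all probes called). With 1 probe per gene it was 3 of 9 there (20.9%) and 3 of 9 in iPS cells over MEFs (35.8%). Leaving out 1 array in turn gave 5 to 5 calls for iPS cells over ES cells, 4 to 4 for MEFs over ES cells and 6 to 6 for iPS cells over MEFs (6 to 7 with the 2 settings without MEF replicate 1); Bcl2l1 A_51_P299454 lost its call without MEF replicate 2. With the replicate number as a block, or crossed, the counts stayed 5, 4 and 6.

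Signs that turned were all of results not called. Under median centring they were Bax in MEFs over ES cells (0.46) and, for iPS cells over ES cells, Mcl1 A_51_P238786 (0.10), Mcl1 A_52_P93933 (0.50), Bax (0.17) and Pmaip1 (0.16). In the same comparison Mcl1 A_52_P93933 read 0.067 in the scanner's log ratio and 0.037 after quantile normalization, and Bad A_51_P419364 read -0.36 in the scanner's log ratio and -0.090 without background correction. In iPS cells over MEFs, Bbc3 read -0.21 with normexp over all spots, -0.017 under median centring and -0.21 with marked spots kept. Bcl2l11 A_52_P158527 read -0.52, -0.045 and -0.52 there, and A_52_P348214 read -0.010 with normexp over all spots and -0.0080 with marked spots kept. Bak1 A_51_P395011 in iPS cells over MEFs was no longer called under 4 alternatives, at -0.91 to -0.94. The cause was not tested apart from the array named.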
